A study of Homo sapiens with 4 samples.

Results

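The genes described are 8 chemokine ligands (CCL20, CCL2, CXCL1, CXCL2, CXCL3, CXCL5, CXCL8 and CXCL10) and the adhesion receptor ICAM1, measured in HepG2 cells after inhibition of miR-191. They were chosen by name, with earlier results of these data known. Each was read from the brightest array row that carried its symbol alone. All 9 were found among the 18417 genes with a row of 1 symbol, with 1 row each. HepG2 is an established human liver cancer line. Cells were transfected with a lipid reagent carrying either anti-miR-191, an antisense inhibitor of the microRNA, or anti-miR-NC, a negative control. Each group had 2 arrays, and the treatment was done in 2 independent experiments, each with 1 anti-miR-191 array and 1 control array. No genotype, dose or time after transfection is given in the sources used here.

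Chemokines are small secreted proteins that guide leukocytes through receptors on the leukocyte surface. CCL20 is the ligand of CCR6, and CCL2 attracts monocytes through CCR2. CXCL1, CXCL2, CXCL3, CXCL5 and CXCL8 (interleukin-8) act on neutrophils through CXCR2, and CXCL8 also through CXCR1. CXCL10 is induced by interferon and binds CXCR3. ICAM1 is a membrane protein that holds leukocytes by their integrins. Hepatocytes and hepatoma cells can make several of these proteins in inflammation, and the transcription factors NF-kB and AP-1 are well known activators of the genes.

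The inhibited microRNA is printed for orientation, with the seed (bases 2 to 8) in capitals, as RefSeq gives it on GRCh38.p14. Both arms of the hairpin lie on chromosome 3, and the labels do not name the arm that was targeted.
hsa-miR-191-5p: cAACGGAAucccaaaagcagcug
hsa-miR-191-3p: gCUGCGCUuggauuucgucccc

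The stretch before the gene start is shown for CCL20 and ICAM1, the members that passed the test below. Each run gives the 250 bases before the RefSeq start on GRCh38.p14 (plus strand of chr2:227813592-227813841 and of chr19:10270870-10271119). Capitals mark matches to GGNNNTTCC on either strand, the letters shared by many NF-kB binding sites (called kB-like here).
CCL20: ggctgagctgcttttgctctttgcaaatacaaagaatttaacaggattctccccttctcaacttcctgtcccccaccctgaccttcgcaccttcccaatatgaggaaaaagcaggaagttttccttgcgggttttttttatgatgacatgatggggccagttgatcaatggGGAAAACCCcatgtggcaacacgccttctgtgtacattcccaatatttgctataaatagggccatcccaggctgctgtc
ICAM1: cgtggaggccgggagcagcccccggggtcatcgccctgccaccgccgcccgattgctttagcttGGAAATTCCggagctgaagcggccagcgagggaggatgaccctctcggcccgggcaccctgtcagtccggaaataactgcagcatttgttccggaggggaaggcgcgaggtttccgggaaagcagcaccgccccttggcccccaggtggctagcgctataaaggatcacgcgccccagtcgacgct

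For the CXC members, 30 bases around the first kB-like match are set side by side, because the rows of these genes did not pass the test or were too dim for it. The windows lie on chromosome 4 of GRCh38.p14, at chr4:73869305-73869334 (plus), chr4:74099253-74099282 (minus), chr4:74038748-74038777 (minus), chr4:73998748-73998777 (minus), chr4:73740468-73740497 (plus) and chr4:76023654-76023683 (minus).
CXCL1: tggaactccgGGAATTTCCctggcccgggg
CXCL2: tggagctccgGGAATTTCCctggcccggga
CXCL3: tggagctccgGGAATTTCCctggcccggcc
CXCL5: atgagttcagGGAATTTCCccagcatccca
CXCL8: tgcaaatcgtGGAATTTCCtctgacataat
CXCL10: aggagcagagGGAAATTCCgtaacttggag

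CXCL1, CXCL2, CXCL3 and CXCL5 carried the same 9 capital letters as CXCL8 in these windows. The RefSeq table held 8 of the 9 members, all but CCL2, and each of the 8 had at least 1 kB-like match in its 250 bases. Of all 35116 promoter windows of that length, 17.1% held one. In CCL20 the match lay at bases -79 to -71 from the start, in CXCL1 and CXCL3 at -78 to -70, in CXCL2 at -77 to -69 and in ICAM1 at -186 to -178. The stricter NF-kB consensus, searched by its name on both strands, was found in 6 of the 8 (not in CXCL8 or ICAM1) and in 5.21% of all windows. It overlapped kB-like matches. The AP-1 motif TGANTCA, which reads the same on both strands, was found in CXCL8 alone among the 8, at -137 to -131, and in 6.57% of all windows. GAAANNGAA, letters of the interferon response element searched on both strands, was found in CXCL10 at -221 to -213, in CXCL2, in CXCL3 and in 6.88% of all windows. Neither motif overlapped a kB-like match in these members. The 250 bases of CXCL1 and CXCL3 were 81.4% identical after global alignment, those of CXCL2 and CXCL3 73.3%, and those of CCL20 and ICAM1 43.5%. A match is a run of letters, and binding was not measured.

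**Figure D1:**
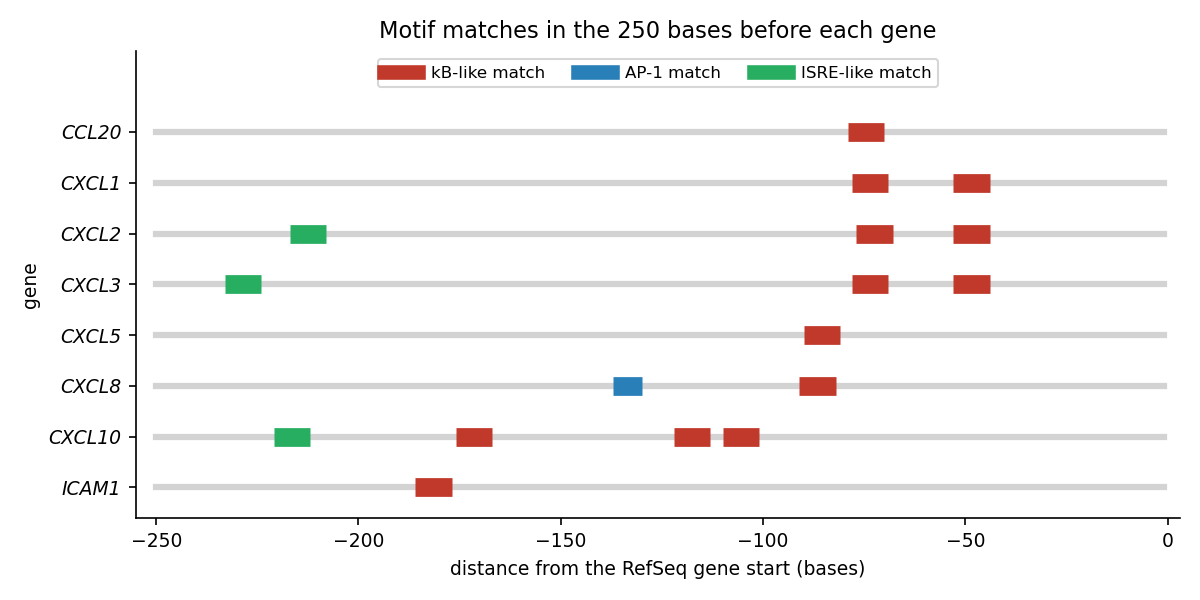
Motif matches in the 250 bases before the RefSeq start of 8 members, with the distance from the start in bases on the horizontal axis and 1 gene per line. Blocks mark kB-like, AP-1 and ISRE-like (interferon response element) matches, with overlapping matches on both strands drawn once. A kB-like block stands between bases -91 and -69 in every gene shown except CXCL10 and ICAM1.

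Values are RMA intensities on the log2 scale, and changes are anti-miR-191 minus control within an experiment, averaged over both, ± SE. This is limma's moderated SE, which draws mostly on the variance of all genes tested and is not the spread of a gene's own changes. Array medians lay between 4.37 and 4.43. Anti-miR-191 arrays had interquartile ranges of 3.38 and 3.43, and controls had 3.18 and 3.24. Genes were tested with limma, with the experiment as a block and Benjamini-Hochberg adjustment over 14147 genes, and "rose" or "fell" is used where the adjusted p was under 0.05. Rows in the lowest 33.3% by mean level (below 3.41) were left out of the test as dim. A gene is counted as on the array where a row carried its symbol alone, and 1754 rows with several symbols were not used. The 10 hepatocyte marker rows on the array averaged 10.31 and 9.96 after anti-miR-191 and 10.37 and 10.56 in controls. Of these 10, all tested, 0 rose and 1 fell, with a median change of -0.33. The one that fell was TTR (transthyretin), with means of 9.85 after anti-miR-191 and 10.89 in controls (limma's adjusted p = 0.0057, and 0.038 without the block). Whether this shift has a part in the members' changes was not tested. The 24 rows for markers of leukocytes, endothelium and stellate cells or fibroblasts ran from 2.44 to 9.65 after anti-miR-191 and from 2.30 to 9.25 in controls, and 10 of them were dim. None of the 14 tested passed limma's paired fit (lowest adjusted p = 0.179, and 0 at an unadjusted p under 0.05). The leukocyte marker PTPRC was dim, at 2.60 and 2.44 after anti-miR-191 and 2.68 and 2.57 in controls, as was the endothelial marker PECAM1. Not all were low, since LYZ, CD68, ITGB2 and COL1A1 had control means of 9.24, 8.39, 6.64 and 6.03.

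After anti-miR-191, 2 of the 9 genes rose, CCL20 and ICAM1, and none fell. Of all genes tested, 10.1% rose and 3.77% fell. CCL20 showed the larger change, 2.49-fold in RMA intensity against a control level not shown to be above background, and ICAM1 rose 1.66-fold. CXCL1, CXCL3 and CXCL5 were tested and did not pass. CXCL2, CXCL8, CCL2 and CXCL10 were dim and were not tested. With dim rows kept, so that all 9 genes were tested among 18417, limma called CCL20 and ICAM1 higher and 0 members lower, where 8.29% of all genes were higher and 3.24% lower. At an unadjusted p under 0.05, CXCL8 was also higher and none was lower. In bulk cultures a change in RNA per cell and a change in the share of cells that express a gene cannot be told apart.

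CCL20 read 5.73 and 6.03 after anti-miR-191 in experiments 1 and 2, and 4.56 and 4.57 in controls. Both anti-miR-191 arrays lay above both controls, by more than 1 log2 unit in each experiment. Its mean level was 5.88 ± 0.21 after anti-miR-191 and 4.57 ± 0.01 in controls (SD, n = 2 each). The change was 1.17 in experiment 1 and 1.46 in experiment 2, with a mean of 1.32 ± 0.15 (limma's adjusted p = 0.0035). The 95% interval of the fold ran from 1.95 to 3.19. Without the experiment as a block CCL20 kept its call (limma's adjusted p = 0.025), beside 3.2% of all genes called higher in that fit. Leaving out single arrays, again with no block, gave limma's adjusted p = 0.031 for the anti-miR-191 sample of experiment 1, 0.133 for that of experiment 2, and 0.097 and 0.104 for the controls of experiments 1 and 2. In these last 3 settings limma called 0 of all genes tested, with between 1189 and 2250 higher at an unadjusted p under 0.05. Of 24 marker rows of leukocytes, endothelium and stellate cells or fibroblasts, 8 read at least as high in controls as CCL20 did there, and 4 did so after anti-miR-191. Probe sets differ in binding, so these rows set no single limit, but the control level of CCL20 was not shown to be above background. Its fold and interval are therefore ratios of signal, and the fold of the transcript itself was not measured.

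ICAM1 read 8.87 and 8.88 after anti-miR-191, and 8.07 and 8.22 in controls. The anti-miR-191 arrays were close to each other and above both controls. Its mean level was 8.88 ± 0.01 after anti-miR-191 and 8.15 ± 0.11 in controls (SD, n = 2 each). The change was 0.80 in experiment 1 and 0.66 in experiment 2, with a mean of 0.73 ± 0.15 (limma's adjusted p = 0.017) and a 95% interval of the fold of 1.31 to 2.10. Without the block limma's adjusted p was 0.053, so ICAM1 passed only where the experiments were paired. With any 1 array left out and no block, its change lay between 0.66 and 0.81 and its adjusted p between 0.109 and 0.277. Of the 24 marker rows, only LYZ and CD68 read higher in controls.

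**Figure D2:**
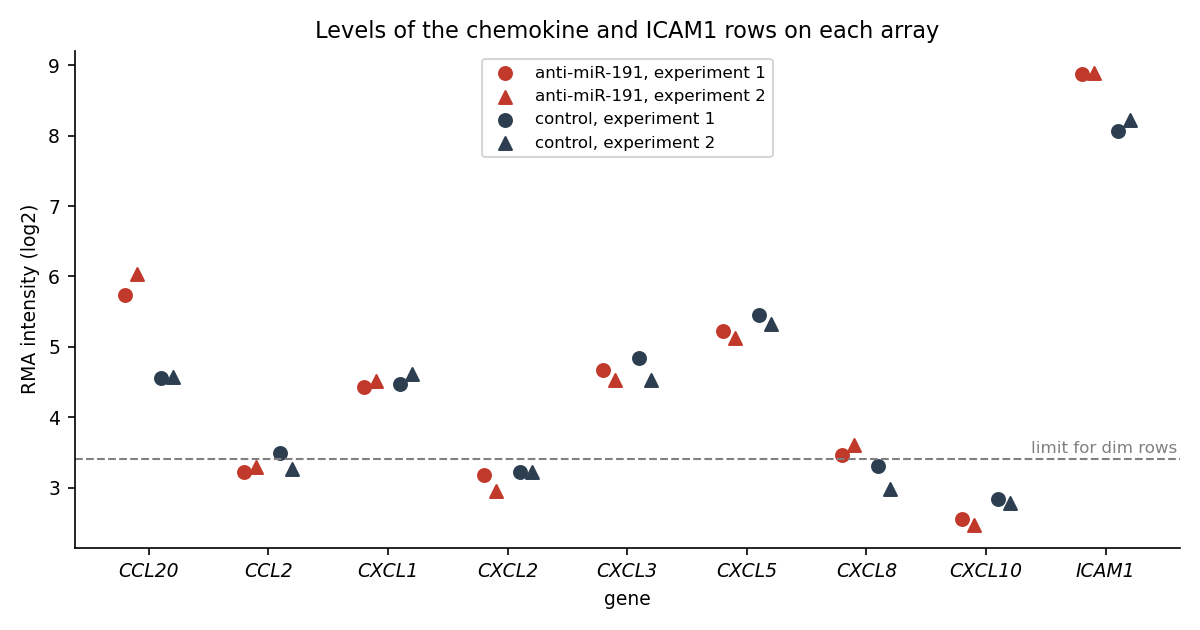
RMA intensity (log2) of the 9 genes on each of 4 arrays, anti-miR-191 arrays in red to the left and controls in dark blue to the right, circles for experiment 1 and triangles for experiment 2. The anti-miR-191 points lie above the controls for CCL20 and ICAM1 and, near the limit for dim rows at 3.41, for CXCL8.

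The 3 ligands of CXCR2 that were tested, CXCL1, CXCL3 and CXCL5, did not pass. CXCL1 read 4.43 and 4.52 after anti-miR-191 and 4.47 and 4.62 in controls, and the groups overlapped. Its change was -0.07 ± 0.14, with a 95% interval from -0.40 to 0.27 (limma's adjusted p = 0.807). CXCL3 read 4.67 and 4.53 after anti-miR-191 and 4.84 and 4.53 in controls, again with overlap. Its change was -0.08 ± 0.15, with an interval from -0.43 to 0.26 (limma's adjusted p = 0.766). CXCL5, also known as ENA-78, read 5.22 and 5.12 after anti-miR-191 and 5.45 and 5.32 in controls. Both anti-miR-191 arrays were lower than both controls, by 0.23 in experiment 1 and 0.20 in experiment 2. The mean change of -0.22 ± 0.14 had an interval from -0.55 to 0.12 (limma's adjusted p = 0.388). These 3 intervals end below the lower bound of the change of CCL20, 0.96, although the difference between genes was not tested. In controls 8 of the 24 marker rows read at least as high as CXCL1, 6 as CXCL3 and 4 as CXCL5. After anti-miR-191 the counts were 8, 6 and 5. The levels of these genes were not shown to be above background. Their intervals therefore describe signal and do not show that the transcripts were unchanged. CXCL1, CXCL2 and CXCL3 have closely similar transcripts, so that their probe sets may share signal.

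CXCL2 was dim, at 3.17 and 2.95 after anti-miR-191 and 3.22 and 3.22 in controls. CXCL8 was dim over the 4 arrays, with a mean level of 3.34. It read 3.46 and 3.60 after anti-miR-191 and 3.31 and 2.99 in controls, so that both anti-miR-191 arrays were the higher ones. Its change was 0.16 in experiment 1 and 0.61 in experiment 2. With dim rows kept its mean change of 0.38 ± 0.16 had limma's adjusted p = 0.176 (unadjusted p = 0.040). Of the 24 marker rows, 18 read at least as high in controls as CXCL8 and 13 after anti-miR-191, so CXCL8 was not shown to be above background in either group.

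CCL2 read 3.22 and 3.29 after anti-miR-191 and 3.49 and 3.27 in controls, and its groups overlapped. CXCL10 read 2.56 and 2.47 after anti-miR-191 and 2.84 and 2.79 in controls. Its changes of -0.29 and -0.32 were nearly equal in both experiments. With dim rows kept, limma's adjusted p was 0.210 for CXCL10, 0.661 for CCL2 and 0.560 for CXCL2. Over the 9 genes, the groups did not overlap for 6, with anti-miR-191 higher in CCL20, ICAM1 and CXCL8 and lower in CXCL2, CXCL5 and CXCL10. Of all 18417 genes 51.1% had groups that did not overlap, so such a split is common between these arrays.

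**Figure D3:**
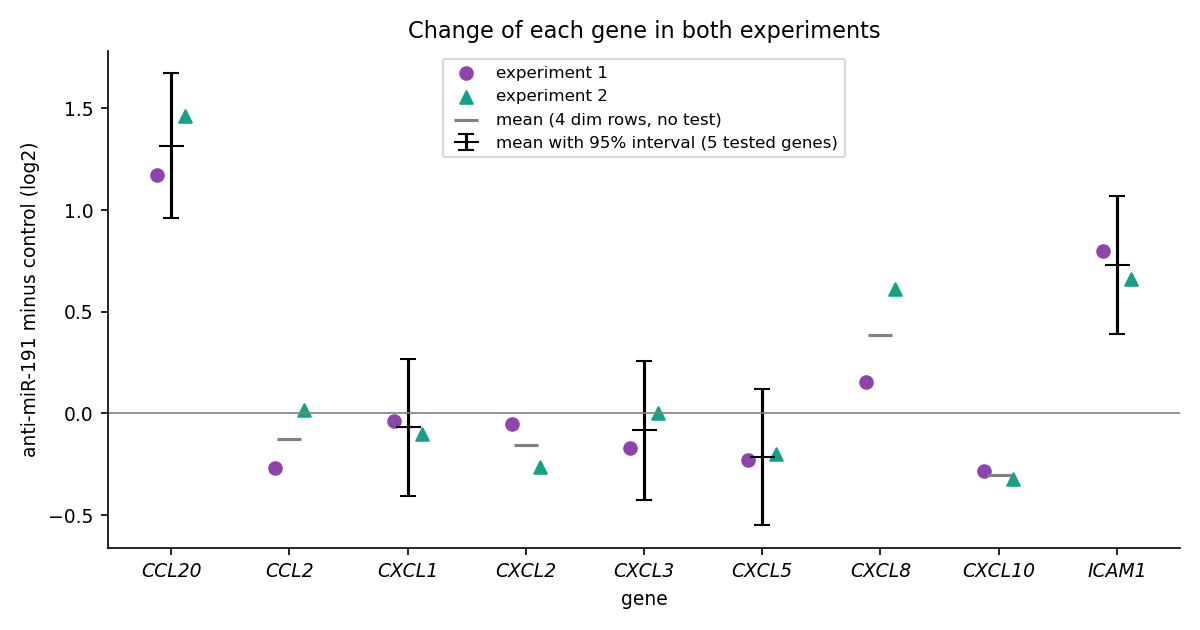
Change of each gene (anti-miR-191 minus control, log2) in experiment 1 (circles) and experiment 2 (triangles), with the mean and its 95% interval from limma for the 5 tested genes and the mean alone for the 4 dim rows. The intervals of CCL20 (0.96 to 1.67) and ICAM1 (0.39 to 1.07) lie above 0, and those of CXCL1, CXCL3 and CXCL5 include 0.

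Most CXC members are neighbours on chromosome 4, in a cluster that follows the liver genes ALB (albumin) and AFP (alpha-fetoprotein) and precedes ligands of the EGF receptor. In RefSeq's gene order CXCL8, CXCL6, PF4V1, CXCL1, PF4, PPBP, CXCL5, CXCL3 and CXCL2 stand in a row. Of these 9 chemokine genes 6 were tested and did not pass limma's paired fit (the lowest unadjusted p was 0.174, for CXCL5), and 3 were dim. CXCL6, another neutrophil chemokine, read 3.66 and 3.71 after anti-miR-191 and 3.88 and 3.90 in controls (limma's adjusted p = 0.413). ALB read 10.62 and 9.65 after anti-miR-191 and 10.14 and 10.58 in controls, and its changes of 0.48 and -0.93 ran in opposite directions. Of 14 listed neighbours of the CXC members 13 were on the array and 7 were tested, and 10.1% of all genes tested rose. Of the 7 neighbours 1 rose. This was EREG (epiregulin, a ligand of the EGF receptor), which read 5.08 and 6.29 after anti-miR-191 and 4.39 and 4.57 in controls, a 2.30-fold rise (limma's adjusted p = 0.017, and 0.134 without the block). In controls 8 of the 24 marker rows read at least as high as EREG, so its fold, like that of CCL20, is a ratio of signal.

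**Figure D4:**
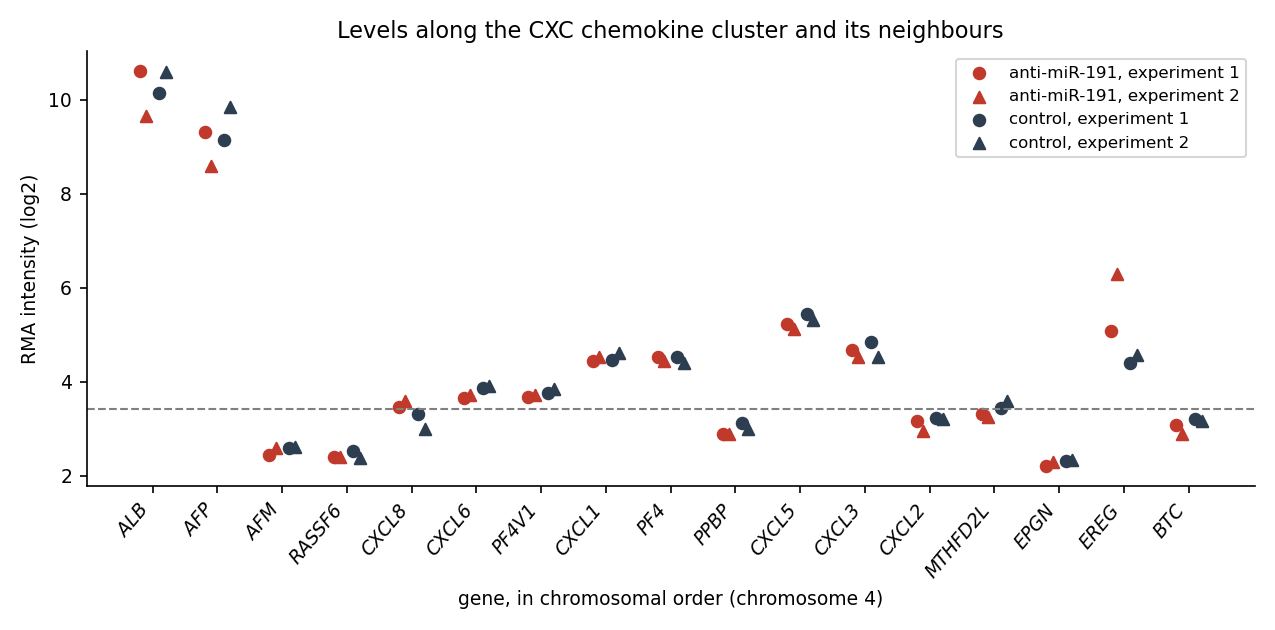
RMA intensity (log2) of protein-coding genes with an array row in their order on chromosome 4 from ALB to BTC, anti-miR-191 arrays in red to the left of controls in dark blue, with the limit for dim rows (3.41) dashed. The chemokine genes from CXCL8 to CXCL2 read between 2.90 and 5.45 on all arrays, and both anti-miR-191 arrays lie above both controls for EREG (5.08 and 6.29, against 4.39 and 4.57) and, close to the limit for dim rows, for CXCL8.

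On chromosome 19 ICAM1 is followed by ICAM4 and ICAM5, with ICAM3 a few genes further on. These relatives, which also bind leukocyte integrins, did not pass the test. ICAM4 read 6.30 and 6.23 after anti-miR-191 and 7.18 and 6.19 in controls, a change of -0.42 ± 0.22 (limma's adjusted p = 0.273). ICAM5 had a change of 0.00 ± 0.14, and ICAM2, which lies elsewhere, a change of 0.10 ± 0.15. ICAM3 read 6.36 and 6.37 after anti-miR-191 and 6.85 and 6.86 in controls, a change of -0.49 ± 0.14 that missed the threshold (limma's adjusted p = 0.063). After quantile normalization and cyclic loess ICAM3 passed as lower (limma's adjusted p = 0.043 and 0.048). Of 16 adhesion molecules and partners of ICAM1, 14 were on the array, 10 were tested, 1 rose and none fell, beside 10.1% and 3.77% of all genes tested. The median change was -0.13 over those tested beside 0.01 over all genes tested. MADCAM1, also listed, had a change of -0.48 ± 0.14 (limma's adjusted p = 0.071) and passed as lower after quantile normalization (0.049). In that setting 1 of the 10 was higher and 2 were lower, beside 896 and 523 of 14142 genes tested. The gene that rose was ITGAM, the alpha chain of the integrin Mac-1, a receptor of ICAM1 on myeloid cells. It read 4.58 and 5.19 after anti-miR-191 and 4.05 and 4.34 in controls (1.61-fold in signal, limma's adjusted p = 0.025, and 0.165 without the block), and 10 of the 24 marker rows read at least as high in controls. The partner chain ITGB2 had a change of -0.20 ± 0.16, and ITGAL, the alpha chain of LFA-1, was dim. VCAM1 and SELE, endothelial adhesion molecules also induced by inflammation, were dim at control means of 3.05 and 2.75.

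No other chemokine ligand or receptor that was tested passed. Of all genes tested 10.1% rose and 3.77% fell, so lists of 18 and 8 tested genes would hold few calls at that share. The median control level was 3.70 over the ligands with a row and 3.12 over the receptors, near the limit for dim rows at 3.41. Rows this low were not shown to be above background, so the lack of calls does not show that the transcripts were unchanged. Of 36 other ligands listed, 32 were on the array and 18 were tested, of which 0 rose and 0 fell in limma's paired fit, with a lowest adjusted p of 0.163 and, at an unadjusted p under 0.05, 0 higher and 1 lower (CX3CL1). Their changes lay between -0.39 and 0.13, with a median of -0.18. CX3CL1 (fractalkine, a membrane-bound chemokine) read 7.76 and 7.62 after anti-miR-191 and 8.34 and 7.81 in controls, and CXCL16, also membrane-bound, read 8.22 and 7.35 after anti-miR-191 and 8.36 and 7.79 in controls. Neither passed (limma's adjusted p = 0.163 and 0.269). CXCL9 and CXCL11, which share the receptor CXCR3 with CXCL10, were dim. Of 22 chemokine receptors 20 were on the array and 8 were tested, and 0 rose and 0 fell in limma's paired fit (lowest adjusted p = 0.224, and 0 at an unadjusted p under 0.05). CXCR1, CXCR2 and CCR2, the receptors of CXCL8, of the CXCR2 ligands and of CCL2, were dim, at 2.99 or below after anti-miR-191 and 3.43 or below in controls. CCR6, the receptor of CCL20, read 3.62 and 3.43 after anti-miR-191 and 3.55 and 3.65 in controls.

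Regulators of chemokine genes rose in several lists. All gene lists here were chosen with earlier results of these data known, so their counts describe these genes and test nothing. Over all genes tested 10.1% rose and 3.77% fell, with a median change of 0.01. Of 15 NF-kB subunits and inhibitors, all tested, 8 rose and 0 fell, with a median change of 0.89. The inhibitor NFKBIZ, a cofactor that acts in the nucleus, read 5.09 and 6.24 after anti-miR-191 and 3.74 and 3.69 in controls (3.86-fold in signal). In controls 11 of the 24 marker rows read at least as high as NFKBIZ and 9 as high as REL, so neither control level was shown to be above background. The subunit genes NFKB2 and RELB rose 2.45-fold and 2.32-fold, NFKB1 rose 1.97-fold and REL rose 1.86-fold, while RELA, named after its values were seen, had a change of 0.01 ± 0.15. TNFAIP3 and NFKBIA, feedback inhibitors of the pathway, had changes of 2.38 ± 0.17 and 2.06 ± 0.23. In controls 6 of the 24 marker rows read at least as high as TNFAIP3 and 4 as high as NFKB1, so both changes are of signal. Without the block 5 of the 15 passed, where 3.2% of all genes tested were called higher. NFKB1 and REL were among those of the 15 that did not pass (limma's adjusted p = 0.094 and 0.106). Of 9 AP-1 factors 7 rose and 0 fell, with a median change of 1.59, among them JUNB, JUN, ATF3, FOSB and FOSL2 (changes of 1.59 to 2.57). For ATF3 too, 6 of the 24 marker rows read at least as high in controls, and 4 did so for FOS and for FOSB. Without the block 5 of the 9 AP-1 factors passed, again beside 3.2% of all genes tested. FOS, counted among the 7, had changes of 0.45 and 2.43 and lost its call there (limma's adjusted p = 0.167). It also lost it after median centring (0.068), quantile normalization (0.108) and cyclic loess (0.064).

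Of 9 genes listed as regulators of AU-rich mRNAs, a class that includes chemokine mRNAs, 3 rose and 0 fell, beside 10.1% and 3.77% of all genes tested. Their median change was 0.27, beside 0.01 over all genes tested. ZC3H12A, an RNase that degrades inflammatory mRNAs, read 8.87 and 9.94 after anti-miR-191 and 7.06 and 6.68 in controls (5.78-fold, limma's adjusted p = 0.0035). ZFP36L1 and TIA1 rose 1.59-fold and 1.54-fold. These 2 calls ended without the block (limma's adjusted p = 0.085 and 0.146) and after quantile normalization (0.078 and 0.066). In controls 4 of the 24 marker rows read at least as high as TIA1, so its fold is a ratio of signal.

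Of 20 upstream cytokines and receptors 13 were tested, 2 rose and 0 fell, with a median change of 0.08, where 10.1% of all genes tested rose. TNF read 4.57 and 4.99 after anti-miR-191 and 4.66 and 4.58 in controls (change 0.16 ± 0.17), and IL1A, IL1B and IL6 were dim. IL6R rose 1.70-fold, and the interferon gamma receptor gene IFNGR2 rose 1.49-fold. IFNGR2 missed the threshold under 6 of the 9 alternatives that kept all arrays, with limma's adjusted p between 0.052 and 0.124, and IL6R missed it under 1, the fit without the block (0.055). Of 16 genes of the interferon response listed beside CXCL10, 12 were on the array and 8 were tested. IRF1, a transcription factor induced by interferon and NF-kB, rose 2.47-fold, reading 6.81 and 7.56 after anti-miR-191 and 5.90 and 5.86 in controls. As 4 of the 24 marker rows read at least as high as IRF1 in controls, its fold is a ratio of signal. ISG15 fell by 0.74 ± 0.16 and BST2 fell by 1.30 ± 0.15, and the other 5 tested did not pass. Without the block ISG15 missed the threshold (limma's adjusted p = 0.059).

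**Figure D5:**
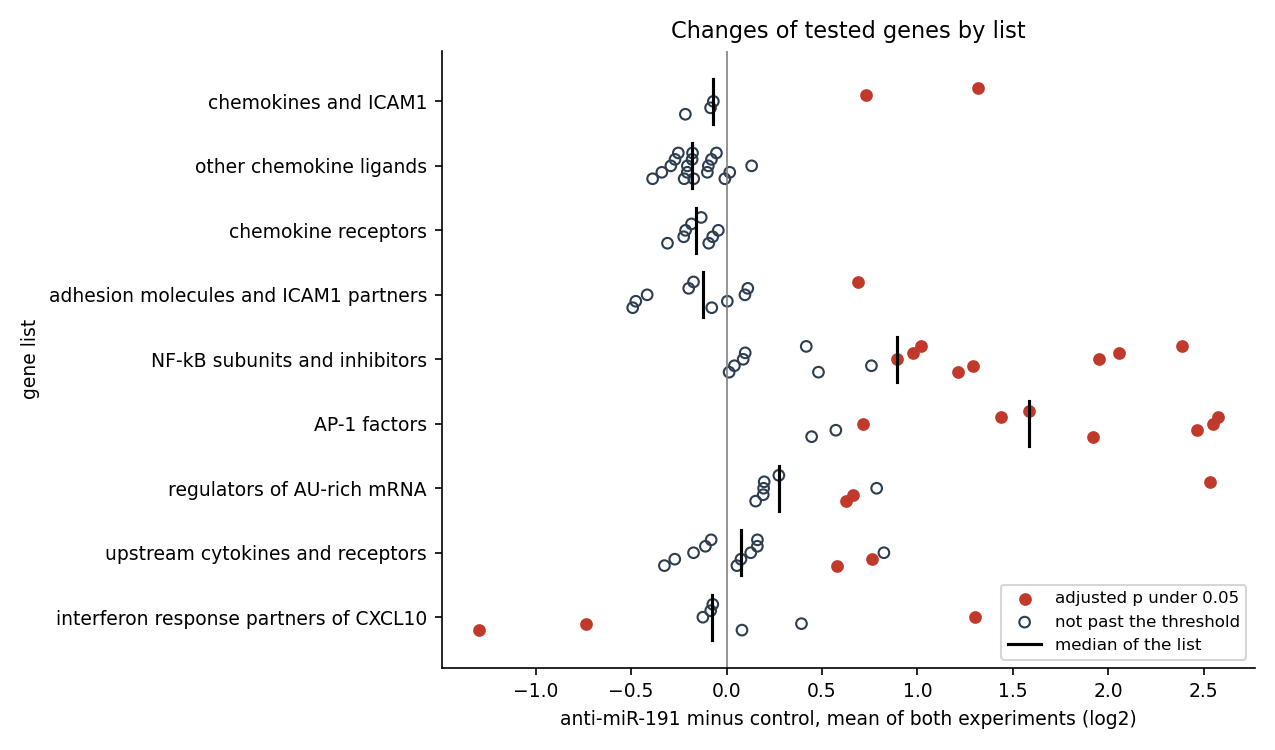
Mean change over both experiments (anti-miR-191 minus control, log2) of each tested gene in 9 lists, filled where limma's adjusted p was under 0.05, with the median of each list as a bar. CCL20 and ICAM1 are the filled points of the first line, no other chemokine ligand or receptor is filled, and the NF-kB and AP-1 lists have medians of 0.89 and 1.59.

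The tested genes with the most similar profile to CCL20 over the 4 arrays, each centred on its own mean, were CEBPG, SLC7A6 and PNMA1, at distances of 0.06 to 0.09 log2 units. CEBPG, a C/EBP family transcription factor, had changes of 1.25 and 1.42, SLC7A6 changes of 1.16 and 1.56, and PNMA1 changes of 1.20 and 1.58 in experiments 1 and 2. Those nearest to ICAM1 were ABCC1, an export pump for glutathione conjugates and drugs, with changes of 0.82 and 0.67, LINC01711 with 0.77 and 0.69, and ZNF707 with 0.78 and 0.72. For CXCL8 they were ZC3H7B, LYSMD1 and RIN1, at distances of 0.02 to 0.03. With 4 arrays there is little to tell profiles apart, and none of these nearest genes belonged to the chemokine or NF-kB lists.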

How the data were processed

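Per the labels, 4 HepG2 arrays were made in 2 experiments. The authors deposited 1 table of log2 intensities from RMA (Affymetrix Expression Console, as the submitters' processing notes name it). Software version and build are not given in the sources used, and base 2 was inferred from how RMA normally reports values and from their range. Of 33297 rows, 19460 had 1 symbol in GEO's 2016 platform annotation, and all 9 members matched RefSeq gene identifiers. The brightest row stood for a gene. limma 3.58.1 (R 4.3.3, lmFit and eBayes) was run two-sided with the experiment as a block (1 residual and 6.60 prior degrees of freedom). Series text and titles give the pairing, and deviations of same-numbered arrays correlated at 0.335 across genes, a single value for the 2 mirrored pairs. Paired p-values set a change against a moderated variance. It draws mostly on all genes tested (6.60 prior degrees of freedom) and less on how far the gene's own experiments differ (1 residual). The fits were tested on simulated data. The members and lists were chosen with earlier results of these data known. All members are named, with up to 5 genes past the threshold per list, partners of members, markers, and the 3 nearest profiles. NFKB1 and REL, beyond those 5, and MADCAM1 were named after their values were seen. In all, 13 alternatives covered the block, dim rows, scaling, moderation, row choice and single arrays. Intensities have no counting depth, and the number of arrays limits precision. Promoter and microRNA sequences come from RefSeq (GRCh38.p14). Figures used matplotlib 3.10.9.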

Additional observations from a re-analysis of the deposited data

How the results depend on the processing

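CCL20 kept its direction in all 13 alternatives (changes between 1.17 and 1.47) and its call in 10, and ICAM1 kept its direction in all 13 (0.66 to 0.81) and its call in 8. Without the replicate block, 1 member (CCL20) was higher in place of 2, and over all genes 452 were higher and 101 lower in place of 1428 and 533. Quantile normalization gave 896 genes higher and 523 lower, and the other scalings gave counts within 1.5 times those of the deposited values. With 1 array left out, a fit without the block in which the lone array is taken to vary like the other group, between 0 and 1 members were higher, between 0 and 315 genes were higher and between 0 and 24 lower. Where the count was 0, limma still had 2 members and between 1189 and 2250 genes higher, and between 474 and 928 lower, at an unadjusted p under 0.05. No member was called lower in any setting, nor at an unadjusted p under 0.05. In those fits the change of CXCL1 ranged from -0.14 to 0.0032 and that of CXCL3 from -0.24 to 0.073, so both changed sign without 1 control array. The causes were not tested. The dim members CXCL2, CXCL8, CCL2 and CXCL10 could be tested only with dim rows kept.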
